A study of Mus musculus with 4 samples.

Results

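The B cells described here are the lymphocytes of the inguinal fat depot that carried transcripts of the B-cell receptor complex. They came from mice held for 24 h at 4 °C or at room temperature, and 1231 of the 15721 cells that passed the filters met the rule. The cells were chosen by their UMI counts (unique molecular identifiers, each 1 captured transcript): a cell was counted as a B cell if it held at least 3 UMIs of Cd79a, Cd79b and Ms4a1 together. It also had to hold no UMI of Cd3e, Cd3d or Cd3g, fewer than 3 of C1qa and C1qb together and fewer than 3 of Krt18. The last conditions remove T cells, macrophages and epithelial cells. The cold group was 8-week-old C57BL/6 mice held at 4 °C for 24 h, and the room temperature (RT) group was 8-week-old C57BL/6 mice held at room temperature for the same time, with 2 libraries in each group. Each library was a 10x Chromium 3′ library of the stromal vascular fraction, the cells that remain after collagenase has freed the fat cells, from the fourth inguinal depot, which also holds the mammary gland. The labels do not say how many animals a library holds, nor their sex, nor whether the inguinal lymph node that lies in this depot was removed. The spread between libraries may therefore be technical or biological, and every p-value given here measures only that spread.

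B cells are the lymphocytes that make antibodies. A naive B cell displays its antibody as IgM and IgD on the surface, where the Cd79a and Cd79b chains (Igα and Igβ) pass its signal to the inside. On meeting an antigen with T-cell help, a B cell may enter a germinal centre, where it divides, mutates its antibody genes and may switch from IgM to IgG, IgA or IgE. It may then leave as a memory cell or as an antibody-secreting plasma cell. Between these steps B cells recirculate through blood and lymphoid tissue, guided by Cxcr5, Ccr7, Cxcr4 and S1pr1, and their survival depends on the cytokine BAFF and its receptor Tnfrsf13c. In adipose tissue B cells are found in lymphoid clusters and among stromal cells, and the inguinal depot encloses a lymph node.

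The cold libraries held 211 and 279 B cells and the RT libraries 564 and 177. Their summed counts, the basis of every test between conditions, were 788221 and 1288358 UMIs in cold and 2042891 and 1213313 UMIs at RT. The median B cell held 2849 and 2781 UMIs in cold and 2224 and 5292 UMIs at RT, so RT replicate 2 was the deepest per cell. No barcode was shared between the B cells of any pair of libraries. Cells with exactly 3 marker UMIs, just inside the rule, numbered 2 and 13 in cold and 19 and 6 at RT. Cells with exactly 2, just outside it, numbered 4 and 20 in cold and 17 and 15 at RT. A further 32 and 123 cells in cold and 133 and 198 cells at RT held 3 or more B-cell marker UMIs and were kept out by a marker of another cell type, most often a Cd3 chain.

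The label was checked with B-cell genes that the rule did not use, after each cell had been thinned to 1500 UMIs so that depth was equal. T cells served as the comparison. They held at least 3 UMIs of Cd3e, Cd3d and Cd3g together, no UMI of Cd79a, Cd79b or Ms4a1, and passed the same limits on C1qa, C1qb and Krt18. Ebf1, a transcription factor that specifies the lineage, was found in 88.2% and 82.8% of B cells in cold and 85.9% and 75.9% at RT, against 1.42% to 5.31% of T cells. Pax5, which maintains B-cell identity, was found in 33.3% and 35.7% of B cells in cold and 38.2% and 23.5% at RT, and in no thinned T cell of any library. The adaptor Bank1 was found in 54.4% and 50.2% of B cells in cold and 52.7% and 42.8% at RT, against at most 0.242% of T cells. Igkc, the kappa light chain, was found in 96.1% and 95.6% of B cells in cold and 92.2% and 88.6% at RT, against 0.654% to 6.76% of T cells. Ighm, the IgM heavy chain, was less exclusive. A UMI of it was held by 88.7% and 89.9% of B cells in cold and 90.5% and 83.7% at RT, and by 24.7% to 28.2% of T cells. The source of the Ighm UMIs in T cells was not tested, and a UMI of Ighm alone was not read as expression. Ebf1, Pax5, Bank1 and Igkc were far more frequent in B cells than in T cells of every library, and the label was kept. Cells with both Cd3 and B-cell marker UMIs had been left out of the T cells, which can lower the T-cell frequencies. No other cell class was compared.

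RNA of other cell types was measured next, because it differed between the conditions. Cells with at least 10 UMIs of the fibroblast collagens Col1a1, Col1a2 and Col3a1 made up 1.42% and 5.02% of B cells in cold and 6.38% and 11.9% at RT. These collagen-carrying cells held 95.8% and 97.6% of the B cells' UMIs of these collagens in cold and 96.3% and 98.2% at RT. They were deep cells, with medians of 10421 and 10832.5 UMIs in cold and 12172.5 and 12888 UMIs at RT. The remaining B cells had medians of 2844 and 2574 UMIs in cold and 2168 and 4946.5 UMIs at RT. Summed over 6 fibroblast markers (Col1a1, Col1a2, Col3a1, Dcn, Pdgfra, Gsn), B cells held 2943 and 3887 CPM (UMIs of a gene divided by all UMIs summed over the B cells of a library, times 1e+06) in cold and 10139 and 9247 CPM at RT. T cells of the same libraries showed the same order, with 1639 and 2387 CPM in cold and 6066 and 3410 CPM at RT. None of the 6 markers was at 0 in any library's B cells. Macrophage markers summed to 1677 and 1539 CPM in cold and 1438 and 2482 CPM at RT, T and NK markers to 49.5 and 149 CPM in cold and 117 and 361 CPM at RT. Red-cell and neutrophil markers stood at 8.88 and 3545 CPM in cold and 1533 and 87.4 CPM at RT, with 1 high library in each group.

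**Figure D1:**
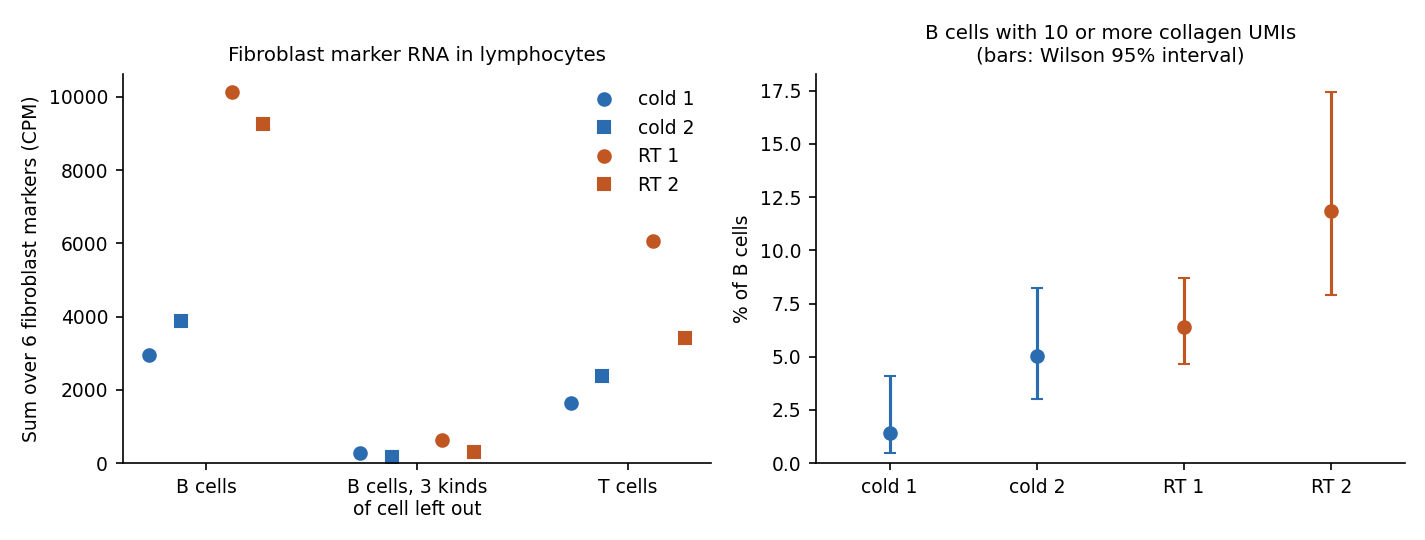
Left, the summed level of 6 fibroblast markers in CPM (vertical axis) in all B cells, in B cells without collagen-carrying, germinal-centre-type and antibody-secreting cells, and in T cells, 1 point per library (blue cold, orange RT). Right, the percentage of B cells with 10 or more collagen UMIs per library with Wilson 95% intervals. Both RT libraries lie above both cold libraries in all B cells (10139 and 9247 CPM at RT) and in the collagen-carrying share, and the level is at most 643 CPM in every library once the 3 kinds of cell are left out.

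The first question of the design is whether B cells took a different share of the recovered cells after cold. B cells were 5.20% (Wilson 95% interval 4.55 to 5.92) and 9.16% (8.19 to 10.2) of cells in cold and 10.3% (9.53 to 11.1) and 5.63% (4.88 to 6.49) at RT. Each group thus had 1 low and 1 high library, and the groups overlapped. The means were 7.18% ± 2.80 in cold and 7.97% ± 3.31 at RT (SD, n = 2 each), a difference of -0.79 percentage points (two-sided exact permutation test, p = 0.667, where 0.33 is the smallest p that 2 against 2 libraries allow). Of B and T cells together, B cells were 18.6% and 35.6% in cold and 54.1% and 29.7% at RT. The highest and the lowest library belonged to different groups, but the inner libraries crossed. The mean was 27.1% ± 12.03 in cold and 41.9% ± 17.2 at RT (SD, n = 2 each; exact permutation test, p = 0.667). These intervals cover counting error only, and the spread between libraries of 1 group was far wider than they are. A lower share of B cells and a higher number of other cells cannot be told apart from these shares.

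Naive-type B cells were taken as those with at least 2 UMIs of Ighd, the IgD heavy chain, and Fcmr, the receptor for secreted IgM, together. They made up 183 and 254 cells in cold and 496 and 165 cells at RT, 1098 in all. Another 56 cells held neither transcript and are called other-state, 15 and 10 in cold and 25 and 6 at RT. The remaining 77 cells had exactly 1 such UMI, and 126 cells sat just inside with exactly 2. At the equal depth of 1500 UMIs, 61.8% (126 of 204) and 67.0% (152 of 227) of B cells were naive-type in cold, against 70.0% (368 of 526) and 51.2% (85 of 166) at RT. The cold libraries lay between the RT libraries. The means were 64.4% ± 3.67 in cold and 60.6% ± 13.3 at RT (SD, n = 2 each; exact permutation test, p = 1). Thinning left out 7 and 52 B cells in cold and 38 and 11 at RT. Without thinning the shares were 86.7% and 91.0% in cold and 87.9% and 93.2% at RT, so most cells called negative at equal depth held these transcripts at their full depth.

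The naive-type and the other-state cells were then compared within each library, as a description, since the transcripts that separate them chose them. The low-affinity IgE receptor Fcer2a (CD23), which marks follicular B cells and took no part in the choice, stood at 238 and 165 CPM in naive-type cells against 36.2 and 15.5 CPM in other-state cells in cold. At RT the values were 305 and 176 CPM in naive-type cells against 66.8 and 27.4 CPM in other-state cells. Fcer2a was therefore higher in naive-type cells of all 4 libraries. Among the 10 genes with the most even excess in naive-type cells were also Lyz2, Retnla, Lyz1, Ccl6 and Lgals3, transcripts typical of macrophages. Lyz2 stood at 1000.2 and 549 CPM in naive-type against 45.3 and 0 CPM in other-state cells in cold, and at 870 and 1533 CPM against 61.2 and 13.7 CPM at RT. The 10 genes on the other side were Prdx4, Creld2, Sdf2l1, Txndc5, Ppa1, Nars, Mycbp, Derl3, Galk1 and Bet1. Txndc5, a disulphide isomerase, stood at 90.4 and 147 CPM in naive-type against 217 and 1314 CPM in other-state cells in cold, and at 116 and 87.0 CPM against 239 and 782 CPM at RT. The other-state sums rested on few cells. Collagen-carrying, germinal-centre-type and antibody-secreting cells together held 71.7% and 85.5% of their UMIs in cold and 64.1% and 79.3% at RT.

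Germinal-centre-type cells were sought among the B cells with 6 markers of that state, among them the repressor Bcl6, the division marker Mki67, the confining receptor S1pr2, the death receptor Fas and the factor Mef2b. A total of 48 cells held at least 3 of the 6, a threshold chosen after the values had been seen, so that no test is given. They were 4 and 26 cells in cold and 15 and 3 cells at RT, or 1.90% and 9.32% of B cells in cold and 2.66% and 1.69% at RT. Cold replicate 2 stood apart from the other 3 libraries. The numbers with exactly 3 markers were 0 and 3 in cold and 7 and 3 at RT, and those with exactly 2 were 1 and 9 in cold and 15 and 8 at RT. The cells were deep, with a median of 9878.5 UMIs against 2589 UMIs in the naive-type cells outside this class, and a deeper cell passes a count of markers more easily. None of the 48 was collagen-carrying, but 32 of them held at least 2 UMIs of markers of fibroblasts, endothelium, macrophages, epithelium or T and NK cells. Without all B cells that held such UMIs, the germinal-centre-type cells were 1 of 117 and 11 of 182 B cells in cold and 4 of 204 and 0 of 49 at RT. At equal depth, the share of B cells with a UMI of Mki67, Top2a or Birc5 was 2.94% and 11.5% in cold and 5.32% and 2.41% at RT, again highest in cold replicate 2.

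Genes outside the 6 markers separated these cells from the naive-type cells that were neither germinal-centre-type, antibody-secreting nor collagen-carrying. Ccr7, which guides cells into T zones, stood at 0 and 3.38 CPM in germinal-centre-type cells against 631 and 435 CPM in naive-type cells in cold, and at 12.6 and 54.5 CPM against 523 and 416 CPM at RT. Klf2, a factor that maintains S1pr1, stood at 21.9 and 37.2 CPM against 1301 and 919 CPM in cold, and at 29.3 and 218 CPM against 439 and 390 CPM at RT. Both genes were lower in germinal-centre-type cells of all 4 libraries, while the chemokine receptor Cxcr4 was lower in 3 of them, with 65.6 and 145 CPM against 605 and 397 CPM in cold and 134 and 245 CPM against 292 and 189 CPM at RT. Rgs13, a G-protein regulator typical of these cells, stood at 153 and 206 CPM against 1.70 and 25.8 CPM in cold, and at 75.3 and 245 CPM against 4.02 and 5.96 CPM at RT. The chromatin protein Hmgb2 stood at 2931 and 3778 CPM against 205 and 414 CPM in cold, and at 3138 and 1580 CPM against 248 and 330 CPM at RT. The replication clamp Pcna was higher in 3 libraries, with 175 and 230 CPM against 42.4 and 39.3 CPM in cold and 167 and 0 CPM against 43.4 and 58.4 CPM at RT. Cd79a itself was lower in germinal-centre-type cells, at 744 and 1321 CPM against 2340 and 2345 CPM in cold and 866 and 845 CPM against 2506 and 1667 CPM at RT. Values of RT replicate 2 rest on 3 cells.

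**Figure D2:**
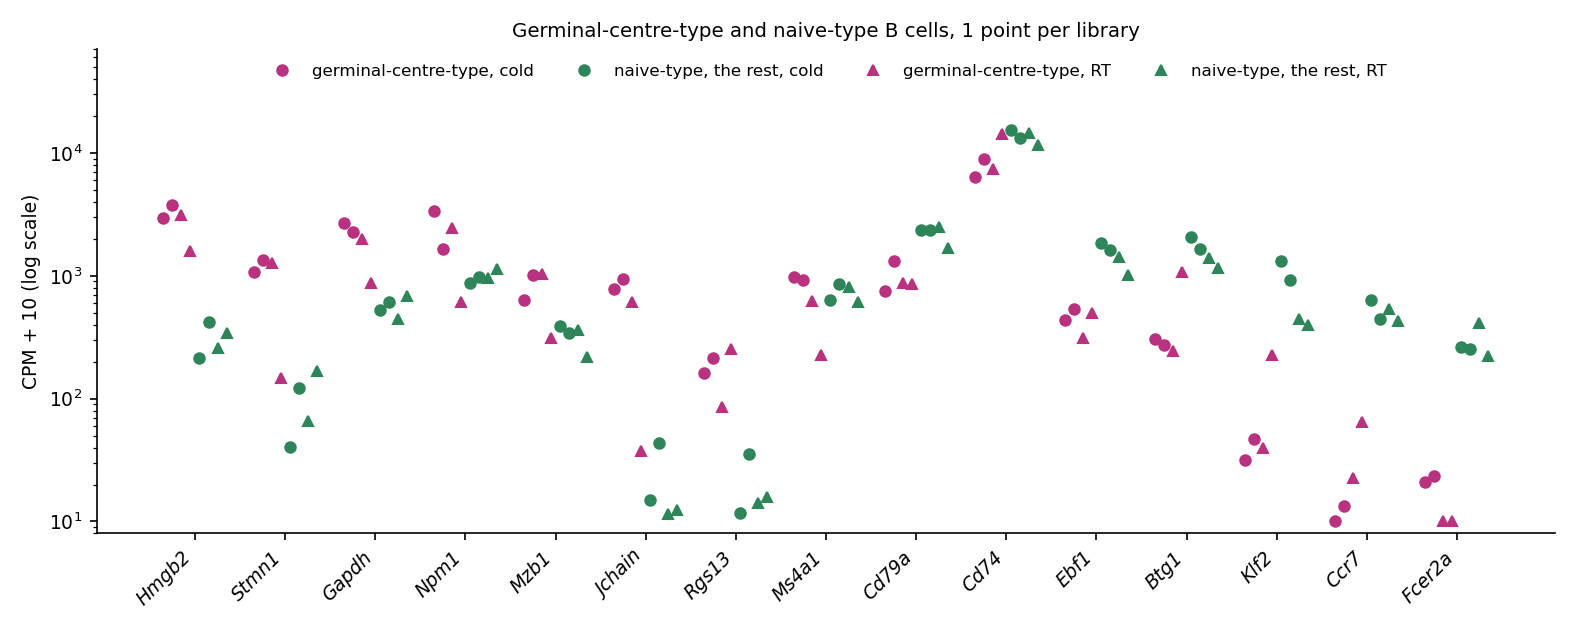
Levels of 15 genes in germinal-centre-type (magenta) and naive-type (green) B cells as CPM + 10 on a log axis, 1 point per library (circles cold, triangles RT). The magenta points lie above the green ones in every library for Hmgb2 and Rgs13 and below them for Klf2, Ccr7 and Fcer2a.

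In replicate 2 of each group, most antibody transcripts lay in very few cells. Only 5 B cells held at least 100 UMIs of Jchain, the joining chain of secreted IgM and IgA, and none of Ms4a1 (CD20), 0 and 3 cells in cold and 0 and 2 at RT. These antibody-secreting cells held 70.3% of all Igkc (kappa light chain) UMIs of B cells in cold replicate 2 and 87.0% in RT replicate 2. In the other libraries they were spread out, with 4794 Igkc UMIs over 204 cells and at most 247 in 1 cell in cold replicate 1, and 12738 over 532 cells and at most 647 in 1 cell in RT replicate 1. One RT replicate 2 cell carried 18626 Igkc UMIs, 64.2% of its total. Igkc accordingly stood at 6082 and 22984 CPM in cold and 6235 and 26628 CPM at RT, high in replicate 2 of each group and low in replicate 1. Jchain stood at 93.9 and 1031 CPM in cold and 79.8 and 1654 CPM at RT. Ighm followed, at 1921 and 4566 CPM in cold and 2332 and 6249 CPM at RT. Of the 3 secreting cells in cold, 1 made IgM with 2313 Ighm UMIs, 1 made IgG2b with 2259 Ighg2b UMIs and 1 made IgG2c with 2071 Ighg2c UMIs. Both secreting cells at RT made IgM, with 3020 and 2770 Ighm UMIs. Kappa cells were 89.6% and 84.6% of B cells in cold and 86.3% and 84.7% at RT, and lambda cells 9.005% and 13.6% in cold and 11.3% and 13.0% at RT, so light-chain use overlapped between the groups.

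Class-switched cells were those with at least 3 UMIs of a switched heavy chain and more of these than of Ighm and Ighd together. They were 2 of 211 and 3 of 279 B cells in cold and 7 of 564 and 0 of 177 at RT, or 0.948% and 1.08% in cold and 1.24% and 0% at RT. The 0 of RT replicate 2 allows a share of up to 2.12% (upper Wilson 95% bound). The mean difference of 0.391 percentage points was within the spread between libraries (exact permutation test, p = 1). Of the 12 switched cells, 9 were germinal-centre-type and 2 antibody-secreting, and all 12 carried IgG transcripts (Ighg1, Ighg2b, Ighg2c or Ighg3). No switched cell held an Igha UMI.

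**Figure D3:**
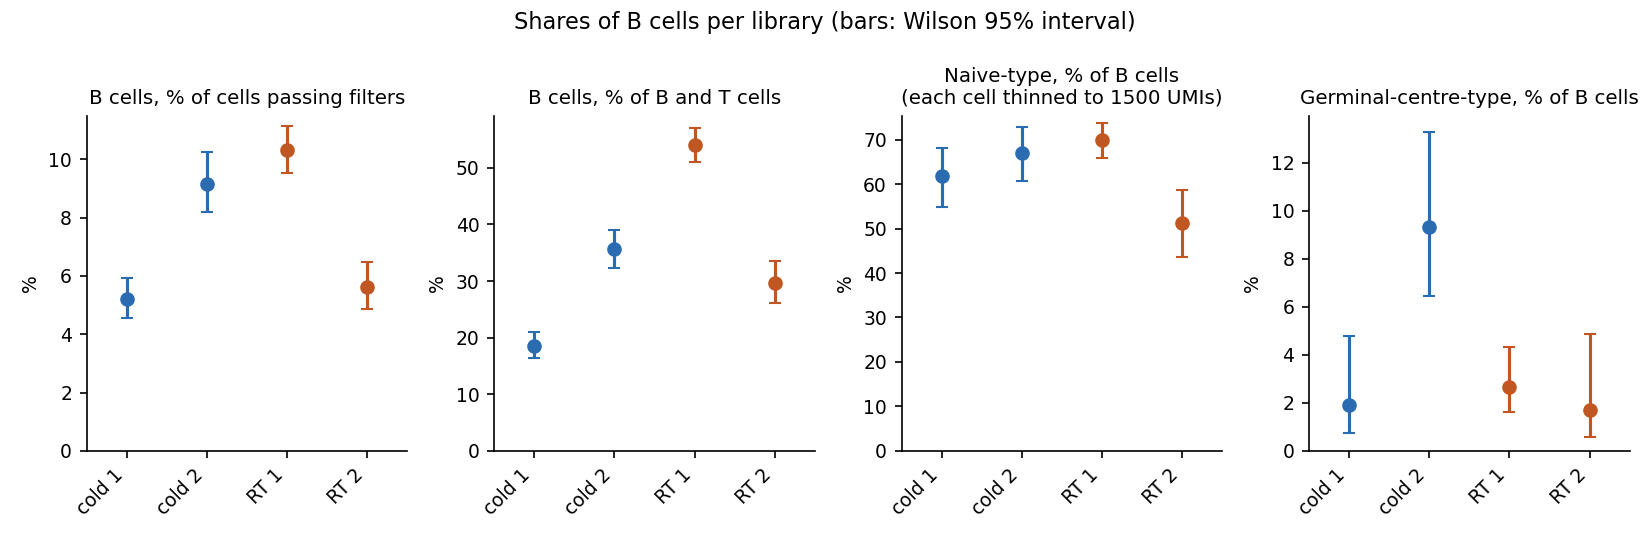
Shares per library in %, from left to right B cells of all cells, B cells of B and T cells, naive-type cells of B cells at 1500 UMIs, and germinal-centre-type cells of B cells, with Wilson 95% intervals (blue cold, orange RT). The values of the cold and RT libraries interleave or overlap in all 4 panels, with B cells at 5.20% and 9.16% of cells in cold and 10.3% and 5.63% at RT.

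The second question is which genes differed in B cells after cold. Raw UMIs were summed per library and tested with the quasi-likelihood test of edgeR with Benjamini-Hochberg adjustment at 0.05 over 9122 genes, and the adjusted p-values below come from that test unless another is named. No gene was higher in cold (0.0% of those tested) and 1 was lower (0.011%). At an unadjusted p below 0.05 there were 400 higher genes (4.39%) and 728 lower genes (7.98%). Both cold libraries lay above both RT libraries for 16.4% of genes and below them for 29.0%. DESeq2, a second count model, called 5 genes higher (0.068%) and 64 lower (0.87%) of 7353. The 5 were Klf2, Tnfrsf13c, Hspa1b, Ciart and Scimp. Over all alternatives their adjusted p ranged from 5.63e-05 to 0.894 for Klf2, 3.94e-05 to 0.786 for Tnfrsf13c, 1.3e-10 to 0.704 for Hspa1b, 1.84e-12 to 0.68 for Ciart and 4.44e-08 to 0.999 for Scimp, each lowest without the filter on low counts. Of those 64 genes, 61 were more abundant in the fibroblasts of the same libraries than in any library's B cells, which held for 32.7% of all 9122 genes. The same was true of 86.7% of the 728 lower genes and of 4% of the 400 higher ones. The part of fibroblast RNA in the lower genes was otherwise not tested.

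The gene that fell was Has1 (ENSMUSG00000003665, GRCm38 chr17:17843323-17855205, minus strand), a hyaluronan synthase of stromal cells. It had 1 UMI in each cold library (1.27 and 0.776 CPM) against 145 and 68 UMIs at RT (71.0 and 56.0 CPM). The cold sum of 2 UMIs was 0.0147 of the RT level by depth (exact 95% counting interval 0.00177 to 0.0538), and the fitted log2 fold change was -5.84 ± 0.45 (SE; adjusted p = 0.031). The UMIs at RT lay in 18 and 8 cells, and the collagen-carrying cells held 96.6% and 98.5% of them. Without the collagen-carrying cells Has1 had too few counts to be tested, and without RT replicate 2 its adjusted p was 0.0689, the highest over the alternatives that tested it, which went down to 3.71e-24. In fibroblasts its mean level was 240 CPM. Other genes just short of the threshold were of the same kind. Egfr, a growth factor receptor of stromal and epithelial cells, stood at 6.34 and 11.6 CPM in cold against 64.1 and 65.1 CPM at RT (adjusted p = 0.0624). Rcn3 and Fkbp9, which act in the endoplasmic reticulum, and the collagen Col5a1 had the same adjusted p, with log2 fold changes of -2.37, -2.40 and -2.13. Col1a1 stood at 92.6 and 217 CPM in cold against 1241 and 915 CPM at RT (log2 fold change -2.72 ± 0.38 SE, adjusted p = 0.0799). All 6 fibroblast markers were lower in both cold libraries, as were 29.0% of all genes. Their median log2 fold change was -1.91 against 0.02 over all genes, and none was called.

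Genes that define the lineage were described with the rule in mind, since Cd79a, Cd79b and Ms4a1 chose the cells. Cd79a stood at 2043 and 1774 CPM in cold against 1881 and 1335 CPM at RT, and Cd79b at 934 and 1136 CPM against 886 and 551 CPM. Ms4a1 stood at 648 and 734 CPM in cold against 641 and 468 CPM at RT. Cold replicate 2 and RT replicate 1 crossed for Cd79a, and RT replicate 2 was the lowest for all 3. Of the B-cell genes outside the rule, Pax5, Bank1, Ighd and Fcmr overlapped between the groups. Pax5 stood at 268 and 243 CPM in cold against 256 and 152 CPM at RT, and Bank1 at 415 and 339 CPM against 376 and 301 CPM. Ighd stood at 636 and 699 CPM in cold against 762 and 474 CPM at RT, and Fcmr at 672 and 686 CPM against 718 and 518 CPM. Of the 21 genes of the B-cell receptor complex and its signalling, 19 had a log2 fold change above 0, as did 51.4% of all genes, and none was called. Their median was 0.38, with 9 higher in both cold libraries and 1 lower. The share of 9 in 21 stands beside 16.4% of all genes. All 16 tested lineage transcription factors lay above 0 with a median of 0.42, and 9 of the 10 genes of MHC class II presentation with a median of 0.38. Irf8, a factor of B-cell and germinal-centre programmes, stood at 334 and 418 CPM in cold against 242 and 226 CPM at RT (log2 fold change 0.78 ± 0.20 SE, adjusted p = 0.218). The cofactor Spib stood at 156 and 166 CPM in cold against 117 and 97.3 CPM at RT (log2 fold change 0.69, adjusted p = 0.233). Both cold libraries exceeded both RT libraries for each of these 2 genes. Ciita, the master activator of MHC class II genes, stood at 270 and 199 CPM against 170 and 94.8 CPM, while its target Cd74 overlapped at 13908 and 10420 CPM against 11016 and 9338 CPM. The medians were lower without cells that carried RNA of other types. Such cells, with at least 2 UMIs of markers of fibroblasts, endothelium, macrophages, epithelium or T and NK cells, were 44.5% and 34.8% of B cells in cold and 63.8% and 72.3% at RT. Without them the medians were 0.05 for the receptor complex (20 genes tested), 0.21 for the transcription factors and 0.15 for MHC class II. The 11 follicular and transitional-type genes had a median of 0.24, and the 9 tested genes of costimulation one of 0.30. Without those cells the medians were -0.23 over 9 genes and 0.02 over 8 genes.

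Genes of homing, egress and survival were examined next. Klf2 (ENSMUSG00000055148, chromosome 8), a factor that keeps lymphocytes quiescent and recirculating, stood at 1133 and 672 CPM in cold against 393 and 373 CPM at RT. Both cold libraries were higher, cold replicate 1 most, and the log2 fold change was 1.36 ± 0.33 (SE; adjusted p = 0.187, or 0.0114 with DESeq2). The log2 fold change was 0.83 without cold replicate 1 and 1.76 without cold replicate 2. It was 1.40 without RT replicate 1 and 1.34 without RT replicate 2. The same gene in T cells of these libraries stood at 738 and 516 CPM in cold against 368 and 326 CPM at RT (log2 fold change 0.87, adjusted p = 0.0608). Its target S1pr1 stood at 67.2 and 89.3 CPM in cold against 80.8 and 81.6 CPM at RT in B cells, with overlapping groups. Cxcr4, the receptor that holds B cells in bone marrow and germinal-centre dark zones, stood at 524 and 309 CPM in cold against 231 and 157 CPM at RT (log2 fold change 1.23 ± 0.36 SE, adjusted p = 0.241). Cxcr5, which directs B cells to follicles, stood at 173 and 108 CPM against 89.1 and 75.8 CPM (log2 fold change 0.86 ± 0.30 SE, adjusted p = 0.307). Ccr7 overlapped, with 535 and 283 CPM in cold and 373 and 327 CPM at RT. Over the 15 genes of homing and egress, 6 were higher in both cold libraries (16.4% of all genes) and 2 lower (29.0% of all genes). Their median was 0.35, and none was called. Among these, Gpr183, Ccr6 and Rgs1 lay at log2 fold changes of 0.96, 0.77 and 0.93, and the integrin Itgb1 at -0.69.

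Tnfrsf13c, the BAFF receptor that keeps mature B cells alive, stood at 258 and 242 CPM in cold against 142 and 76.6 CPM at RT. The cold libraries were alike and both RT libraries lay below them (log2 fold change 1.29 ± 0.30 SE, adjusted p = 0.173, or 0.0493 with DESeq2). Its relative Tnfrsf13b (TACI) stood at 123 and 119 CPM against 111 and 75.8 CPM (log2 fold change 0.46, adjusted p = 0.472). The plasma-cell receptor Tnfrsf17 (BCMA) had 0 and 1.55 CPM in cold and 0 CPM in both RT libraries and was not tested. Over the 13 tested genes of BAFF receptors and survival the median was 0.16. In both cold libraries 2 genes were higher (16.4% of all genes) and 1 lower (29.0% of all genes).

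**Figure D4:**
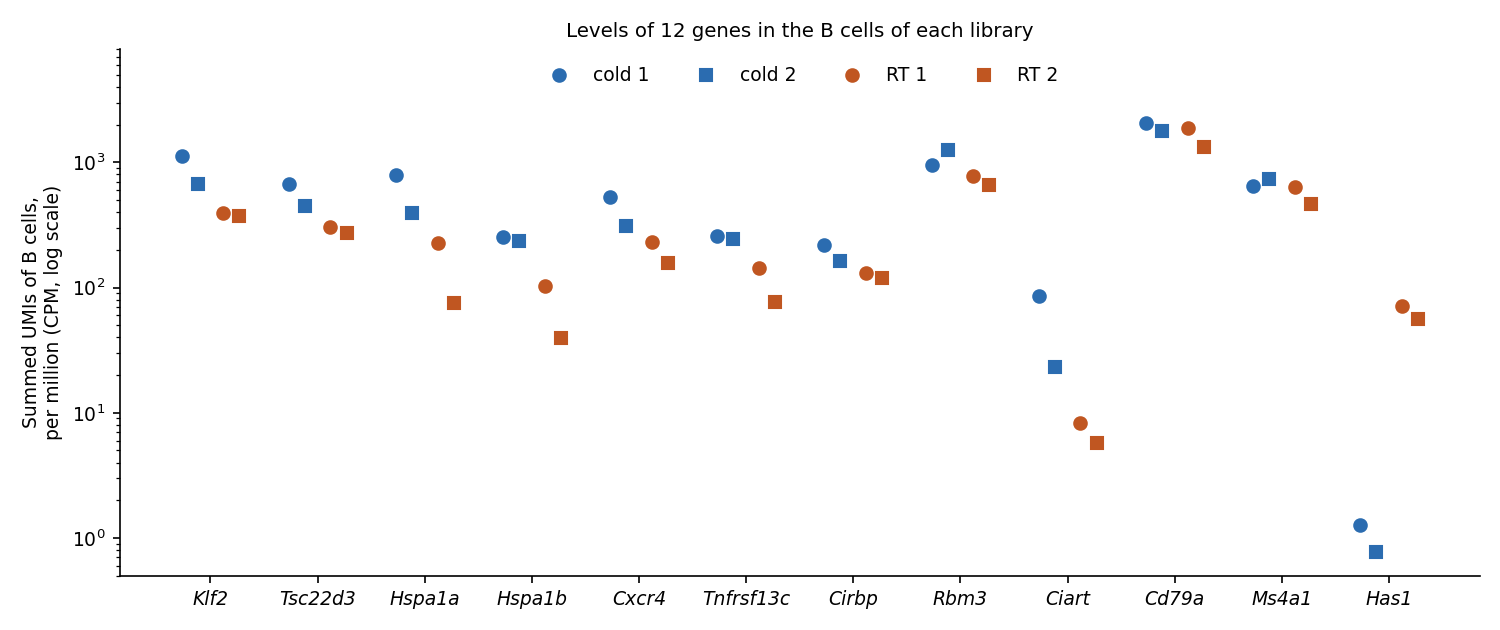
Levels of 12 genes in B cells in CPM on a log axis, 1 point per library (blue cold, orange RT, circles replicate 1 and squares replicate 2). Both blue points lie above both orange points for Klf2, Tsc22d3, Hspa1a, Hspa1b, Cxcr4, Tnfrsf13c, Cirbp, Rbm3 and Ciart, the points cross for Cd79a, and those of Has1 at 1.27 and 0.776 CPM lie far below its RT points.

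Among genes named by the lowest p under the fixed conditions of level and side, Ppp1r21, an endosomal protein, stood at 66.0 and 58.2 CPM in cold against 24.5 and 19.8 CPM at RT (log2 fold change 1.56, adjusted p = 0.102). Scimp, an adaptor of MHC class II signalling in B cells, stood at 73.6 and 62.9 CPM against 24.0 and 13.2 CPM (log2 fold change 1.92 ± 0.32 SE, adjusted p = 0.105, or 0.0182 with DESeq2). Without the cells that carried RNA of other types, the log2 fold change of Scimp was 0.12. Pik3ip1, an inhibitor of PI3-kinase, stood at 88.8 and 95.5 CPM against 52.9 and 44.5 CPM (log2 fold change 1.01, adjusted p = 0.128). Cenps, a centromere protein, and the serine protease inhibitor Serpina3g had log2 fold changes of 1.83 and 1.79 and adjusted p-values of 0.121 and 0.131. That of Cenps was 1.05 without germinal-centre-type and antibody-secreting cells and 0.91 without collagen-carrying cells as well, and that of Serpina3g was 1.16 without cells above 10000 UMIs. For all 5 genes the cold libraries lay above the RT libraries, as the conditions for naming them required.

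The heat shock chaperones were led by Hspa1a and Hspa1b, the inducible Hsp70 genes, which lie side by side on chromosome 17 and have nearly the same sequence. Whether each 3′ read was assigned to the right copy was not tested. The promoters of both genes are shown because the letters that heat shock factors are known to bind lie in both. In these RefSeq sequences (GRCm38.p6, minus strand, 250 bases before to 50 after the gene start, chr17:34972107-34972406 for Hspa1a and chr17:34959189-34959488 for Hspa1b), capitals mark the letters GAANNTTC, searched on both strands.
Hspa1a: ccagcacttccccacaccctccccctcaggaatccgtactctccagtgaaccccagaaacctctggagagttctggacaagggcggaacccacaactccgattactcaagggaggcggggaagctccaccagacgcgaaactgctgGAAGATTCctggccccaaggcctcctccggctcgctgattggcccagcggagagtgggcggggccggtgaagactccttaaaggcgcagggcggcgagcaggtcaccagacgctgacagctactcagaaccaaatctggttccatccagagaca
Hspa1b: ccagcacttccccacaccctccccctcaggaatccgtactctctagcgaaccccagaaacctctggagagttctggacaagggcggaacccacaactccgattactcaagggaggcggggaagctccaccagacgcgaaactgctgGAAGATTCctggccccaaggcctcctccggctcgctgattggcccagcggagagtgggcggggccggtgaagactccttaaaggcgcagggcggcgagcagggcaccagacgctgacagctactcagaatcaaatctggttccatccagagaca
The 2 promoters differ at 4 of 300 bases (98.7% identity), and each holds GAANNTTC once, at position 147. Of all 32851 promoters in the table, 7.86% hold these letters. The promoters of Hspe1 and Hsph1 hold them as well, that of Dnajb1 does not.

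Hspa1a stood at 785 and 391 CPM in cold against 227 and 75.8 CPM at RT, and Hspa1b at 252 and 238 CPM against 103 and 39.6 CPM. The sum of the pair was 1038 and 629 CPM in cold against 330 and 115 CPM at RT, 3.74 times higher in the mean. Without RT replicate 1 the ratio was 7.22, without RT replicate 2 it was 2.53, and without 1 cold replicate it was 2.82 or 4.66. Every cold value exceeded every RT value, while the libraries within a group differed widely. The log2 fold change was 2.08 ± 0.57 for Hspa1a (SE; adjusted p = 0.224) and 1.86 ± 0.40 for Hspa1b (SE; adjusted p = 0.144, or 0.004 with DESeq2). Leaving out 1 library gave 1.37 to 3.08 for Hspa1a and 1.37 to 2.73 for Hspa1b. Without the cells with RNA of other types the log2 fold changes were 1.57 and 1.06. In T cells the same genes rose by log2 fold changes of 2.12 and 2.20 (adjusted p = 0.0232 and 0.0251). The difference in cold effect between B and T cells was -0.01 ± 0.40 and -0.25 ± 0.26 (log2, SE), which did not pass its test. The cochaperone Dnajb1 stood at 217 and 108 CPM in cold against 99.9 and 77.5 CPM at RT (log2 fold change 0.98), and the constitutive Hspa8 at 2220 and 1696 CPM against 1626 and 1454 CPM (log2 fold change 0.46). Hspa5, the chaperone of the endoplasmic reticulum, lay the other way at 428 and 371 CPM against 473 and 499 CPM (log2 fold change -0.17). Over the 14 chaperones the median was 0.33, with 4 higher in both cold libraries (16.4% of all genes) and 3 lower (29.0% of all genes).

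Of the cold-inducible RNA-binding proteins, Cirbp stood at 219 and 162 CPM in cold against 131 and 119 CPM at RT, and Rbm3 at 948 and 1257 CPM against 783 and 658 CPM. Both proteins are known to accumulate on mild cooling, and both genes were higher in each cold library, as were 16.4% of all genes. Their log2 fold changes were 0.72 ± 0.25 and 0.71 ± 0.23 (SE; adjusted p = 0.309 and 0.286). In T cells the values were 0.76 and 0.64, and there they passed the test (adjusted p = 0.0373 and 0.0362).

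Some genes known to respond to glucocorticoids showed a similar picture. Tsc22d3 (GILZ), a glucocorticoid-induced leucine zipper protein, stood at 676 and 449 CPM in cold against 303 and 274 CPM at RT (log2 fold change 1.08 ± 0.29 SE, adjusted p = 0.224). Ddit4, an inhibitor of mTORC1, stood at 30.4 and 80.7 CPM against 12.7 and 26.4 CPM (log2 fold change 1.68 ± 0.48 SE, adjusted p = 0.236), and its log2 fold change was 0.88 without cold replicate 2. Fkbp5, a cochaperone of the glucocorticoid receptor, stood at 53.3 and 79.2 CPM against 37.2 and 41.2 CPM (log2 fold change 0.86 ± 0.23 SE, adjusted p = 0.221). For each of the 3 genes both cold libraries lay above both RT libraries. Of the 19 tested genes of this list, 6 were higher in both cold libraries (16.4% of all genes) and 2 lower (29.0% of all genes). Ddit4 and Fkbp5 rose in T cells, by log2 fold changes of 1.81 and 1.13 (adjusted p = 0.0261 and 0.027). For Tsc22d3 the difference in cold effect between B and T cells was 0.27 ± 0.22 (log2, SE; adjusted p = 0.927). Other members of the list lay at or below 0, such as Per1 at 92.6 and 48.9 CPM in cold and 84.7 and 84.9 CPM at RT, and the median over the 19 tested was 0.09. Klf2, Cxcr4 and Pik3ip1 are members of this list too. Without the cells that carried RNA of other types the median was 1.23 over the 14 genes still tested, so the genes changed as well as the cells.

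Of the circadian genes, Ciart was the one with the largest difference, and it is named here after its values had been seen, as its place among the DESeq2 calls lies outside the rule for named genes. Ciart encodes a repressor of the clock activators Clock and Arntl, and its promoter is shown because those activators bind E-boxes with the letters CACGTG. In the RefSeq sequence (GRCm38.p6, chr3:95882179-95882478, minus strand), capitals mark CACGTG, which reads the same on both strands.
Ciart: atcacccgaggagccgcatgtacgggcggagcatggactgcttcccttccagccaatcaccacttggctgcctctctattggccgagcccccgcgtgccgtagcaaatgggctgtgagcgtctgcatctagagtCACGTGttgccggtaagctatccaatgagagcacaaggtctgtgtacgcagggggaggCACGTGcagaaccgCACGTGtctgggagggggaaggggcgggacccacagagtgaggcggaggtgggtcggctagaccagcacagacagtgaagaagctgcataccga
The letters occur 3 times, at positions 135, 193 and 207, while 7.15% of all promoters in the table hold them at least once. Ciart stood at 85.0 and 23.3 CPM in cold against 8.32 and 5.77 CPM at RT, or 67 and 30 UMIs against 17 and 7 UMIs. Cold replicate 1 was the highest by a wide margin, and cold replicate 2 still lay above both RT libraries. The log2 fold change was 2.96 ± 0.70 (SE; adjusted p = 0.173, or 0.00755 with DESeq2), and it was 1.70 without cold replicate 1. Dbp, another clock output, stood at 22.8 and 26.4 CPM in cold against 16.6 and 14.0 CPM at RT (log2 fold change 0.77, adjusted p = 0.358), and its promoter holds no CACGTG. Nr1d1 and Rora lay at -0.87 and -0.94. The 14 tested clock genes had a median of -0.18, with 3 higher in both cold libraries (16.4% of all genes) and 6 lower (29.0% of all genes).

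Of the 18 immediate early genes, which switch on within minutes of a stimulus, 13 lay above 0 with a median of 0.22, and none was called. Without the collagen-carrying, germinal-centre-type and antibody-secreting cells 16 of 18 lay above 0 with a median of 0.53, and without the cells with RNA of other types 15 of 16 tested with a median of 0.65. Fos stood at 595 and 681 CPM in cold against 703 and 541 CPM at RT, with the groups overlapping, and Jun at 455 and 456 CPM against 373 and 299 CPM (log2 fold change 0.54, adjusted p = 0.384). The orphan receptor Nr4a2 lay lower, at 16.5 and 14.7 CPM in cold against 31.3 and 101 CPM at RT (log2 fold change -1.97 ± 0.60 SE, adjusted p = 0.262). Of 13 tested NF-kB targets 5 were lower in both cold libraries (29.0% of all genes) and 2 higher (16.4% of all genes), with a median of -0.24. Tnfaip3, a feedback inhibitor among them, stood at 46.9 and 37.3 CPM against 61.7 and 97.3 CPM. Cd83 and Cd69, surface markers of activation, stood at 907 and 369 CPM against 399 and 310 CPM, and at 231 and 144 CPM against 148 and 74.2 CPM. Both overlapped between the groups (adjusted p = 0.427 each). The 18 interferon-response genes had a median of 0.33 with 10 above 0. Isg15 stood at 36.8 and 173 CPM in cold and 27.9 and 93.1 CPM at RT, high in replicate 2 of both groups.

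Genes of cytokines, of B1 and memory cells and of plasma cells were few in counts. Lta, which encodes lymphotoxin alpha, stood at 25.4 and 26.4 CPM in cold against 11.3 and 8.24 CPM at RT (log2 fold change 1.46 ± 0.33 SE, adjusted p = 0.159), and Il10 at no more than 3.30 CPM in any library. Over the 9 tested cytokine genes the median was -0.07, and over the 10 tested plasma-cell genes 0.21, or -0.17 over 6 genes without the cells with RNA of other types. Of the 13 tested B1 and memory-type genes 6 were lower in both cold libraries (29.0% of all genes) and 3 higher (16.4% of all genes). Their median was -0.26, or 0.16 over 8 genes without the same cells. Among them the scaffold gene Ahnak stood at 151 and 158 CPM against 306 and 457 CPM (log2 fold change -1.20 ± 0.26 SE, adjusted p = 0.144). Vim and S100a6, which fibroblasts also express, lay at -0.91 and -0.56. Mzb1, a chaperone of antibody assembly in marginal zone, B1 and plasma cells, stood at 391 and 640 CPM against 382 and 211 CPM (log2 fold change 0.88, adjusted p = 0.348), and 0.42 remained without the collagen-carrying, germinal-centre-type and antibody-secreting cells. Xbp1, the plasma-cell factor, overlapped at 82.5 and 156 CPM in cold and 81.3 and 125 CPM at RT.

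Division genes peaked in cold replicate 2, the library with the most germinal-centre-type cells. All 18 genes of the cell cycle had a log2 fold change above 0 with a median of 0.79. Of these 18, 4 were higher in both cold libraries (16.4% of all genes). Mki67 stood at 53.3 and 189 CPM in cold and 106 and 29.7 CPM at RT, with overlapping groups. Without the 3 kinds of cell above the median was -0.27 over 15 tested genes, a selection that takes Mki67-positive cells out by construction. Of metabolic genes, the 23 of oxidative phosphorylation had a median of -0.02 with 11 above 0. In both cold libraries 4 of the 23 were higher (16.4% of all genes) and 5 lower (29.0% of all genes). Their median was -0.24 without the 3 kinds of cell, with 4 of 23 above 0. It was -0.27 without the cells with RNA of other types, with 4 of 23 above 0. After thinning it was -0.13, with 9 of 23 above 0. The list thus lay lower in cold in these settings than in all B cells. The 16 tested genes of glycolysis and hypoxia had a median of 0.01. Gapdh, a glycolytic enzyme, stood at 756 and 952 CPM in cold against 596 and 579 CPM at RT (log2 fold change 0.63, adjusted p = 0.303). The 15 genes of ribosome biogenesis and Myc lay at a median of 0.22 with 13 above 0. Without the 3 kinds of cell 4 of the 15 lay above 0 with a median of -0.13, and without the cells with RNA of other types 3 of 15 with a median of -0.18. Those of adrenergic receptors and cAMP response lay at -0.10. Adrb3, the adrenergic receptor of fat cells, had no UMI in B cells.

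**Figure D5:**
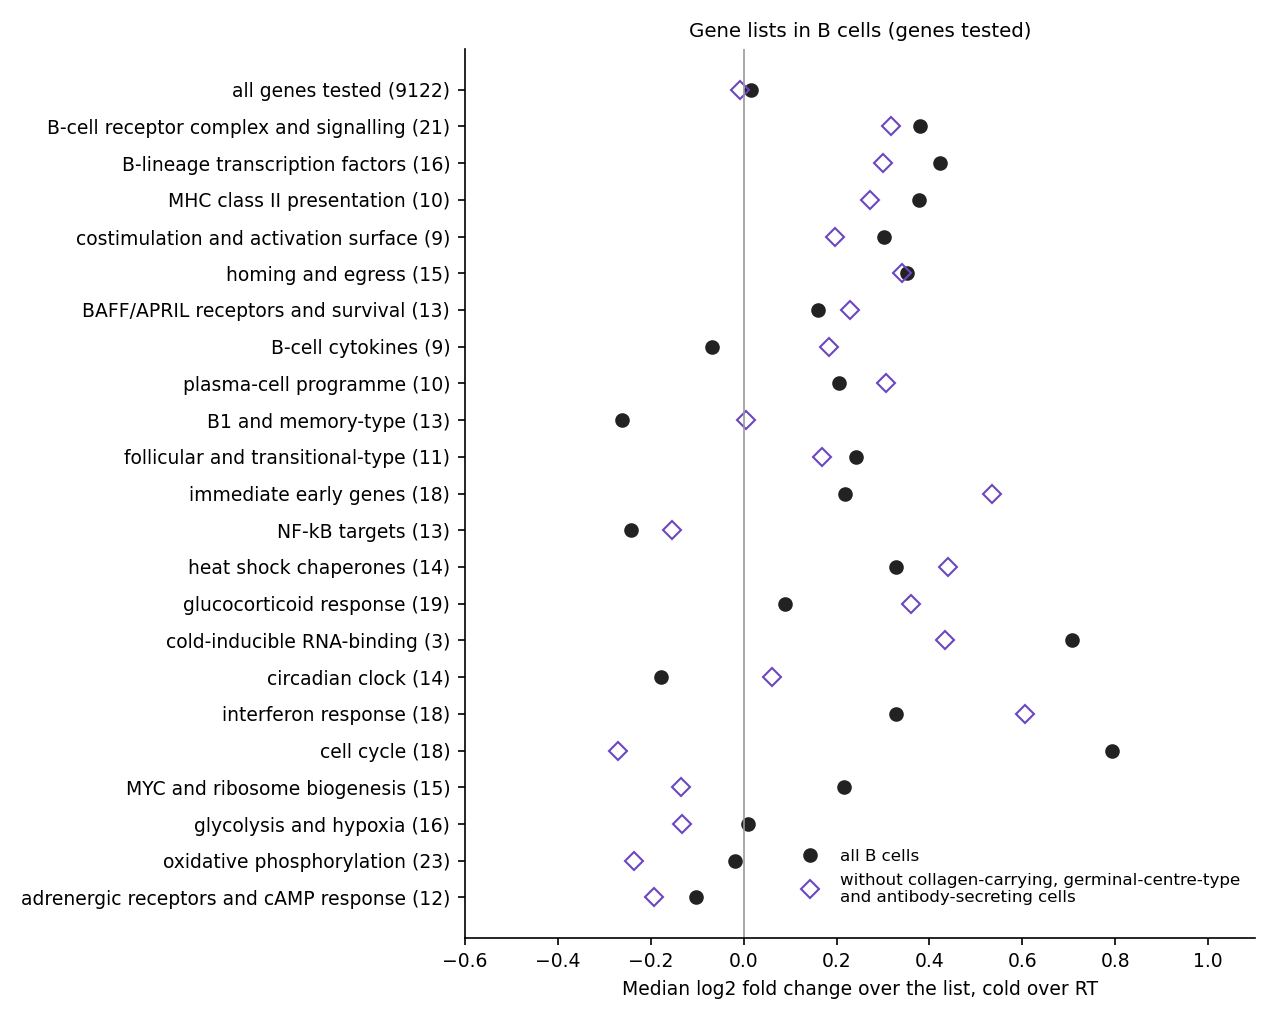
Median log2 fold change, cold over RT (horizontal axis), of each gene list in B cells other than the cell type markers and the immunoglobulin constant regions, with the number of genes tested in brackets, for all B cells (filled circles) and without collagen-carrying, germinal-centre-type and antibody-secreting cells (open diamonds). The medians shown lie between -0.27 and 0.79, and the cell cycle list moves from 0.79 to -0.27 when those cells are left out.

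The same test was run on the naive-type cells alone. Of 8849 genes none was called in either direction (0.0% each), with 275 higher (3.11%) and 510 lower (5.76%) at an unadjusted p below 0.05. Of the 10 genes that the rule named here, 6 were also among the 10 named in all B cells. Ppp1r21 stood at 70.1 and 57.6 CPM in cold against 24.0 and 19.7 CPM at RT (log2 fold change 1.63, adjusted p = 0.285), and Ptpn22, a phosphatase that dampens antigen-receptor signalling, at 108 and 99.1 CPM against 42.8 and 57.4 CPM (log2 fold change 1.17, adjusted p = 0.327). Has1 stood at 1.56 and 0.847 CPM in cold against 82.8 and 60.1 CPM at RT (adjusted p = 0.0673). Col1a2 stood at 240 and 299 CPM against 1143 and 1090 CPM (log2 fold change -1.94, adjusted p = 0.258), so the fibroblast transcripts were low in cold in naive-type cells as well. Scimp, Serpina3g and Pik3ip1 had log2 fold changes of 1.66, 1.63 and 1.04, and the stromal transcripts Meg3, Lum and Col5a1 of -1.93, -2.03 and -1.80. The other-state cells alone were not tested, because RT replicate 2 held 6 of them and the least set for a test was 10. That least number was not set for the interaction below, which used the same 6 cells.

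Whether the cold effect differed between naive-type and other-state cells was tested as an interaction of state and temperature, each library forming a block. The cold effect was the signed log2 fold change, cold over RT. It was higher in naive-type than in other-state cells for 11 of 6550 genes (0.168%) and lower for 1 (0.0153%). At an unadjusted p below 0.05 the shares were 3.73% and 0.565% of genes. The 11 were led by stromal genes, for which a higher value meant a smaller decrease in naive-type cells. Col1a2, a fibroblast collagen, had no UMI in other-state cells of either cold library, against 847 and 96 UMIs at RT, of which collagen-carrying cells held 99.5% and 99.0%. Against a floor of 3 UMIs over the cold group it was at least 218-fold lower in cold in other-state cells, or at least 76.9-fold against RT replicate 2 alone. These bounds cover the counting of UMIs only, not which few cells were sampled. In RT replicate 1, 1 cell held 517 of the 847 UMIs. The single gene on the other side, Ighg2c, had 16 and 2071 UMIs in other-state cells in cold, each from 1 cell, against 4 and 0 UMIs at RT, and its call was lost without cold replicate 2 (adjusted p = 0.92) and without RT replicate 1 (adjusted p = 1). Below the threshold on that side were Slpi, Cd52, Tnip3 and Srcap, with Cd52, a surface protein of lymphocytes, at -2.29 ± 0.68 (log2, SE; adjusted p = 0.393).

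The cold effect in B cells was compared with that in T cells, the other lymphocytes of the same libraries, in the same way. No gene of 11328 was called in either direction (0.0% each), with 382 higher in B cells (3.37%) and 282 lower (2.49%) at an unadjusted p below 0.05. In T cells alone 164 genes rose (1.47%) and 303 fell (2.71%) of 11186. T cells were deeper, with medians of 4922 and 7389 UMIs in cold and 4378 and 7829 UMIs at RT. Rasgrp3, a Ras exchange factor of B-cell receptor signalling, stood at 108 and 82.3 CPM in B cells in cold against 62.7 and 33.0 CPM at RT, and the difference of cold effects was 2.57 ± 0.42 (log2, SE; adjusted p = 0.187), or 1.53 with every cell thinned to 1500 UMIs. Ptpn22 differed by 1.34 (adjusted p = 0.288), and Dennd5b, Rgs5 and Hbb-bt by 2.40, 3.54 and 4.92. The value of Dennd5b was 0.41 after thinning, and that of the globin gene Hbb-bt was -0.0037 without RT replicate 1. On the other side Lgals1, which encodes galectin-1, stood at 86.3 and 189 CPM in B cells in cold against 389 and 429 CPM at RT and differed by -1.34 ± 0.23 (log2, SE; adjusted p = 0.284). Thy1, Phlda1, Penk and Apol7c differed by -1.83, -1.66, -3.45 and -7.88, and leaving out 1 library moved Penk as far as -9.07 (without cold replicate 2) and Apol7c between -12.93 (without RT replicate 1) and -3.96 (without RT replicate 2). For Cxcr4 the difference was 1.08 ± 0.29 (log2, SE; adjusted p = 0.654) and for Klf2 0.48 ± 0.22 (log2, SE; adjusted p = 0.858). No difference between the cold effects of B and T cells was therefore called for any gene, and the small number of libraries does not show that the effects were alike.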

How the data were processed

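Single-cell RNA was measured in 4 libraries of mouse stromal vascular fraction, 2 cold and 2 RT. The values are raw counts of UMIs per gene and barcode, deposited by the authors and made with Cell Ranger 3.0.2, per the submitters' processing notes, which also name Seurat and the builds mm10 and GRCm38. Which annotation release was used is not stated in these sources. Barcodes numbered 4840 and 3871 for cold, 6339 and 4168 for RT, with 35198164 to 55160902 UMIs each. A cell needed 500 genes and less than 15% mitochondrial UMIs to be kept (4061 and 3045 in cold, 5471 and 3144 at RT). Doublets were scored with Scrublet (scanpy 1.11.5) at 0.8% per 1000 cells; 3 and 9 B cells in cold and 14 and 9 at RT were scored, and they were left out only as an alternative. No B-cell annotation by the authors was used.

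Counts were summed per library and fitted with edgeR 4.0.16 in R 4.3.3 (TMM, filterByExpr, quasi-likelihood F-test, two-sided, Benjamini-Hochberg adjustment over all genes tested at 0.05), with DESeq2 1.42.0 as an alternative; NA adjusted p-values stayed NA. The fits were checked on simulated counts. Shares were compared with exact permutation tests. Thinning drew 1500 UMIs per cell once, and shallower cells were left out. The intervals are Wilson 95% intervals and cover counting error only. Positions of all 413 genes looked up and promoter sequences came from annotation of GRCm38 and from RefSeq. Named genes are called genes whose mean reached 20 CPM and with both cold libraries on the same side of both RT libraries, 10 each way, filled with the 5 of lowest p where fewer than 5 passed (5 each way for states and interactions), plus a fixed list of 28 B-cell and stress genes, some of which, like 1 of the 6 germinal-centre markers, are not reported here. The members and the lists were chosen with earlier results of these data known.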

Additional observations from a re-analysis of the deposited data

Results flagged for a closer look

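The cold effect differed between naive-type and other-state B cells for 12 genes by the edgeR interaction test with the library as block. Differences of cold effect (naive-type minus other-state, log2) were 11.89 for Fn1, 11.88 for Col1a2, 11.51 for Col3a1, 11.47 for Plpp3 and 11.42 for Sparc. All 5 genes had no UMI in other-state cells of either cold library, so these fitted values depend on the prior count and are no bounds. Against a floor of 3 UMIs over the cold group, other-state cells were at least 134-fold lower in cold for Fn1, 218-fold for Col1a2, 399-fold for Col3a1, 42.3-fold for Plpp3 and 164-fold for Sparc. Against RT replicate 2 alone these bounds were 35.2, 76.9, 78.5, 60.9 and 50.5, and against RT replicate 1 alone 174, 275, 529, 34.8 and 210. All of these bounds cover the counting of UMIs only, not which few cells were sampled. In naive-type cells Fn1 stood at 383 and 426 CPM in cold against 901 and 958 CPM at RT. At RT, 1 other-state cell of replicate 1 held 1078 of the 1628 Col3a1 UMIs. Ighg2c differed by -10.54, and 2071 of its UMIs in cold replicate 2 came from 1 antibody-secreting cell. Without cold replicate 2 it differed by -4.86 (edgeR adjusted p = 0.92), and without RT replicate 1 its adjusted p was 1, so the call rests on those libraries. The other-state class held 15 and 10 cells in cold and 25 and 6 at RT, and collagen-carrying cells among them numbered 0 and 0 in cold and 4 and 1 at RT. Their part in the result was not tested.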

How the results depend on the processing

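The count of genes called in B cells, 1 in all, was 69 with DESeq2, 208 with the replicate number as a block, and 701 if low counts were not filtered. It was 7 with at least 2 and 12 with at least 6 marker UMIs, and 4 with every cell thinned to 1500 UMIs. It was 0 without cells above 10000 UMIs, without collagen-carrying cells, without cells with RNA of other types, without collagen-carrying, germinal-centre-type and antibody-secreting cells, and without scored doublets. Leaving out 1 library gave 0 to 111 genes: 11 without cold replicate 1, 111 without cold replicate 2, 52 without RT replicate 1 and 0 without RT replicate 2. With 1 library left in a group, that library is taken to vary like those of the other group. With RLE size factors, without immunoglobulin genes, with the looser cell filter (at least 200 genes, under 25% mitochondrial UMIs) and without cycling-type, plasma-type or germinal-centre-type and antibody-secreting cells it was 1. The pairing check gave a correlation of 0.044 over 9122 genes between the deviations of cold replicate 1 and RT replicate 1 from their group means. It does not show whether libraries of the same number share a batch, and the labels give only the number. Median UMIs of T cells were higher in replicate 2 of both groups, at 7389 in cold and 7829 at RT against 4922 and 4378. In naive-type cells, with 0 genes called, DESeq2 gave 28, the replicate block 3 and leaving out 1 library 0 to 82 (1 without cold replicate 1, 82 without cold replicate 2, 19 without RT replicate 1). The 12 genes of the naive-type against other-state interaction were 26 with RLE size factors and 19 to 38 without 1 library, and the 0 genes of B against T cells were 5 after thinning and 1 to 25 without 1 library (1 and 12 without cold replicates 1 and 2, 25 and 3 without RT replicates 1 and 2).

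The cold minus RT difference for the B-cell share of cells, -0.79 percentage points, was 1.79 without cells with RNA of other types and ranged from -3.13 to 1.55 without 1 library, at 1.19 without cold replicate 1 and 1.55 without RT replicate 1. That for the B-cell share of B and T cells, -14.8, was -1.32 without cells with RNA of other types and ranged from -27.0 to -2.67 without 1 library. That for the naive-type share of B cells, 3.78, was -3.69 without cells with RNA of other types, -0.053 without cells above 10000 UMIs, -3.32 at 4 or more UMIs and -1.70 unthinned, and ranged from -5.60 (without RT replicate 2) to 13.2. That for the class-switched share of B cells, 0.391, was -0.49 without cells with RNA of other types, -0.031 without plasma-type cells, -0.137 without cells above 10000 UMIs, -0.0911 without germinal-centre-type and antibody-secreting cells and 0 without the 3 kinds of cell, and ranged from -0.23 to 1.01. For both B-cell shares, cells with RNA of other types were taken out of the B cells only. The counts of all cells and of T cells were left unfiltered. Such cells were 44.5% and 34.8% of B cells in cold and 63.8% and 72.3% at RT, so this filter by itself lowers the RT shares more. The causes were not tested. Over 975 pairs of a named gene and a setting (68 genes), 850 kept direction and side of the threshold. In 81 pairs the test was passed in addition, 4 lost it, and 40 turned direction, in 13 genes. Those that turned passed the test in neither of the settings compared. A gene that stayed uncalled in the same direction counts as kept, whatever the size of its change. Scimp is such a case, at 1.92 in all B cells and 0.12 without cells with RNA of other types (log2). Igkc turned under 9 settings, Ighm under 7, Jchain under 6, Xbp1 under 5 and S1pr1 under 4, and Cd79a, Ms4a1 and Bank1 without cells with RNA of other types (-0.11, -0.22 and -0.12). Genes with few UMIs, such as Ciart, and classes of few cells, such as other-state, limit what these depths can show.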
